A study of Rattus norvegicus with 16 samples.

Results

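The antioxidant and glutathione defence genes were examined in the left ventricle of male spontaneously hypertensive (SH) and Wistar Kyoto (WKY) rats that had breathed diesel exhaust (DE) or air. The members were a named list of 38 genes, taken up through the array's probe annotation whatever their signal was. Of these, 35 genes were measured by 42 probe sets that the annotation gives to 1 gene each, among 12783 such probe sets for 10411 genes on the array. Prdx1, Fth1 and Ftl1 were represented only by probe sets shared with other genes and are not given here.

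The 4 groups held 4 arrays each. SH-DE and WKY-DE rats inhaled diesel exhaust at 2.0 mg/m3, and SH-air and WKY-air rats were kept in air in the same way. By the sample records every rat was 12 to 14 weeks old and exposures of 6 hr were repeated on 5 days of each week over 4 weeks, although the study's methods give another number of hours per day. SH rats are an inbred strain that develops high blood pressure, and WKY rats are the normotensive strain usually set beside them, so a strain difference cannot be assigned to blood pressure alone.

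Superoxide dismutases turn superoxide into hydrogen peroxide, which catalase, the glutathione peroxidases and the peroxiredoxins then remove. The peroxidases are recharged by glutathione or by thioredoxin, and both are kept reduced by reductases that spend NADPH. Many of these genes are known targets of NRF2, a transcription factor released by its inhibitor KEAP1 when cells meet electrophiles or oxidants. The heart depends on them because its dense mitochondria produce superoxide.

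NRF2 binds the antioxidant response element, so the RefSeq promoters of the members (build GRCr8, 250 bases before to 50 after the gene's start) were searched on both strands for its core, TGACNNNGC or GCNNNGTCA. It was present in 8 of the 29 members with a promoter in the table (27.6%), Sod2, Gstp1, Gclm, Gsta1, Mt1, Mt2A, Prdx4 and Prdx5, and in 3342 of 27457 promoters of this length (12.2%). Among the further genes of the pathway described below, 15 of 56 held it (26.8%), so the share was not particular to the members. The windows of Sod2, a member that differed between the strains, and of Gstp1, Gclm and Mt2A, from different arms of the pathway, show what was counted, with the core in capitals and each sequence on the gene's strand.
Sod2, chr1:50050183-50050215, minus strand, core at -35 to -27 from the start: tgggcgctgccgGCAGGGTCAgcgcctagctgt
Gstp1, chr1:210769746-210769778, minus strand, core at -61 to -53: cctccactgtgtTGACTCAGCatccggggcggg
Gclm, chr2:213031951-213031983, plus strand, core at -172 to -164: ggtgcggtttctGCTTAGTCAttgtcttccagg
Mt2A, chr19:10838925-10838957, minus strand, core at -237 to -229: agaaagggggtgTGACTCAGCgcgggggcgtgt
Gstp1 and Mt2A hold the core in the printed orientation, Sod2 and Gclm in reverse complement. A match describes the letters and is not evidence that the site is used, and elements further from the start are not covered.

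All values are MAS5 signals on a linear scale, scaled by the authors so that each array has the same trimmed mean. Differences are on the log2 scale after an offset of 16.1 was added to each signal, which understates the differences of dim probe sets. The test was limma's moderated test on all 16 arrays, with Benjamini-Hochberg adjustment over 15866 probe sets, and "called" means that the adjusted p was under 0.05 and the raw p under 0.01. The labels name the arrays as replicates of a group, and p-values measure only the spread between these arrays. Probe sequences were not compared with the genomes of the 2 strains, so the part of sequence variants in a strain difference of signal was not tested. Signals cannot tell fewer cells of a type from less RNA per cell. Of the 42 member probe sets 32 had a mean signal of 200 or more, so most were brighter than the median probe set. Shares of the members are set beside all probe sets without matching for brightness. The part of brightness in these shares was not tested.

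Median signals per array were 185 to 194 in SH-DE, 173 to 197 in SH-air, 209 to 216 in WKY-DE and 178 to 192 in WKY-air, so the 4 WKY-DE arrays lay above the other 12, and the log2 values of any 2 arrays correlated at 0.933 to 0.968. Markers of ventricular muscle were high throughout, with summed signals of 191746 to 239625 in SH-DE, 247505 to 261819 in SH-air, 203234 to 290443 in WKY-DE and 275862 to 359471 in WKY-air. In SH-air against WKY-air 10 of their 12 probe sets were below 0, and 2 were called lower. The atrial light chain Myl7, which ventricle should nearly lack, was uneven. It read 94.2, 1443, 7876 and 187 in SH-DE, 33.5, 154, 33.4 and 75.0 in SH-air, 657, 404, 9630 and 2927 in WKY-DE, and 25946, 4415, 11451 and 9718 in WKY-air. Of the 6 atrial markers 5 were measured, and Myl7, Myl4 and Sln were called lower in SH-air than in WKY-air. Nppa and Nppb were not called. Nppa averaged 14839 in SH-air and 30316 in WKY-air, and Nppb 18461 and 18390. These genes hold most of the atrial sums, so the sums say little of Myl7, Myl4 and Sln. The atrial sums were 29356 to 43375 in SH-air and 46387 to 118416 in WKY-air, and no atrial marker was at 0. Fibroblast markers were also lower in SH-air (6 of 9 probe sets called, summed signal 17311 to 21376) than in WKY-air (26278 to 35894). The part of these markers in the results that follow was not tested.

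In air, the strains differed in both directions across the antioxidant genes. SH-air exceeded WKY-air 1.43-fold in Sod2, while Sod3, ceruloplasmin (Cp) and Pgd were lower. These were 5 of the 42 probe sets (11.9%), 1 higher and 4 lower, where 3.14% of all probe sets with 1 gene were called, and 14 had an unadjusted p under 0.05 (33.3%, against 17.8%). The median difference over the 42 probe sets was -0.08, with 18 above 0 and 24 below, beside 0.02 over all 12783. Groups did not overlap for 11 of the 42 (26.2%), against 11.7% of all probe sets, with 4 of the members higher in SH-air (9.52%, against 5.86%) and 7 lower (16.7%, against 5.85%).

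Sod2 and Sod3 differed in opposite directions in air. Sod2, the mitochondrial manganese enzyme, read 4846, 4849, 4037 and 4015 in SH-air, against 2959, 3185, 3541 and 2716 in WKY-air. The lowest SH-air array lay above the highest WKY-air array, and the log2 difference was 0.52 ± 0.11 (SE, adjusted p = 0.0235). Sod3, the enzyme secreted into the extracellular space, read 809, 1012, 1144 and 866 in SH-air, against 1459, 1395, 1350 and 1565 in WKY-air. It was lower on every SH-air array, by -0.59 ± 0.14 (adjusted p = 0.033). Left out 1 at a time, 4 of the 8 air arrays (replicates 1 and 2 of SH-air, 1 and 4 of WKY-air) each ended the Sod2 call (adjusted p up to 0.0731) and 7 of them the Sod3 call (adjusted p up to 0.0953), and with the compared groups alone the adjusted p was 0.122 for Sod2 and 0.0984 for Sod3. The cytosolic Sod1 and catalase (Cat) were not called, with differences of -0.22 ± 0.10 and 0.07 ± 0.12.

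Under DE the strains no longer stood apart in these enzymes to the same extent. Sod2 read 4476, 4421, 4259 and 4793 in SH-DE and 4207, 4234, 4146 and 3816 in WKY-DE, a difference of 0.13 ± 0.11 (adjusted p = 0.663) although the groups did not overlap. Sod3 read 1267, 912, 1174 and 892 in SH-DE and 1085, 984, 935 and 1037 in WKY-DE, with overlapping groups and a difference of 0.06 ± 0.14. The WKY-DE means lay nearer to the SH means than the WKY-air means did, higher than WKY-air for Sod2 and lower for Sod3. Both genes are described because WKY-air differed from SH-air, so a nearer WKY-DE mean is partly set by that choice. Neither exposure difference nor the strain by exposure interaction was called (interaction -0.39 ± 0.16, adjusted p = 0.34, for Sod2 and 0.65 ± 0.20, adjusted p = 0.242, for Sod3). Over both exposures Sod2 was called higher in SH rats, by 0.32 ± 0.08 (adjusted p = 0.0326), a call that was lost when any of 10 of the 16 arrays was left out (adjusted p up to 0.07) and after quantile normalization (adjusted p = 0.074).

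**Figure D1:**
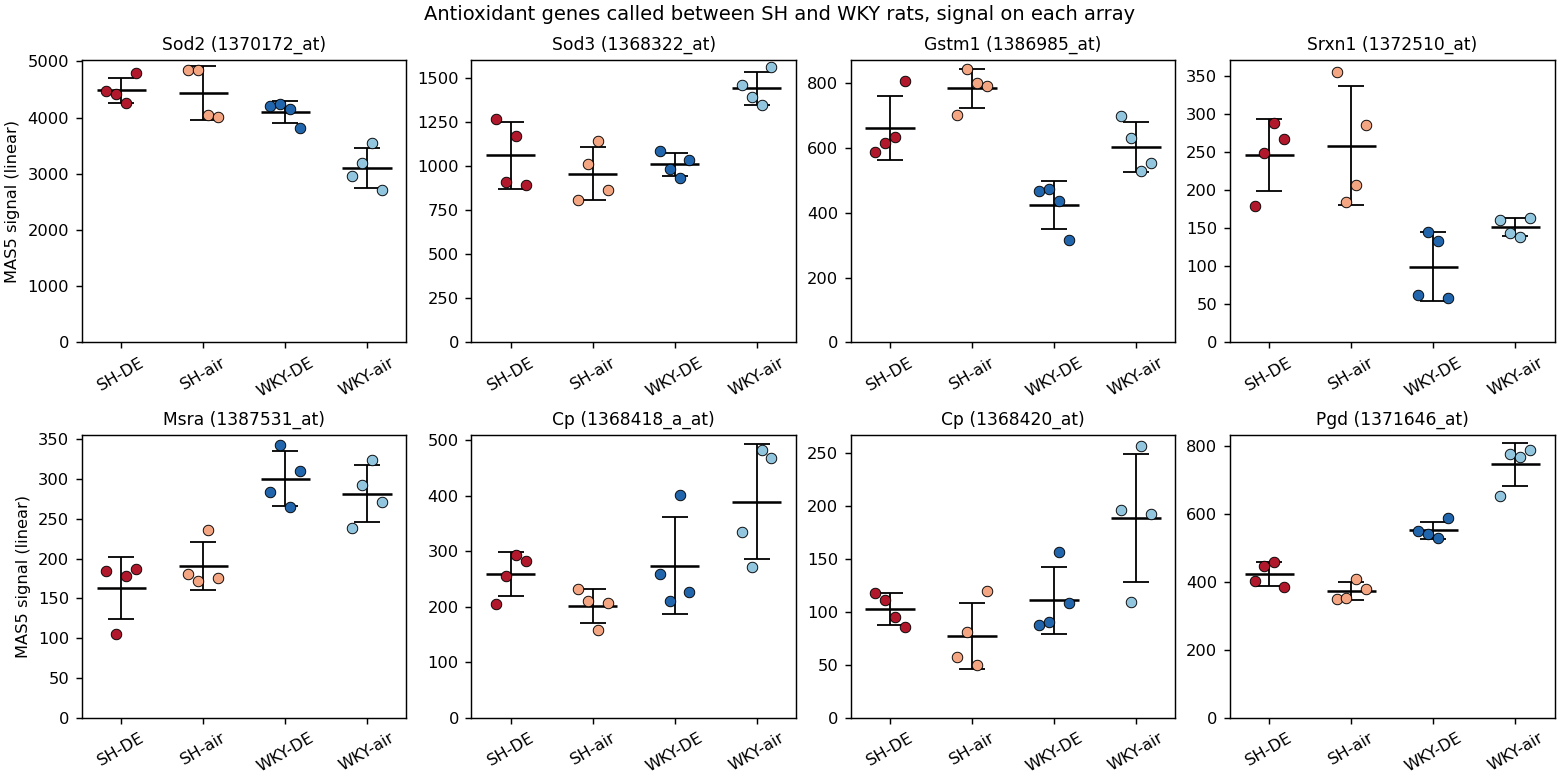
MAS5 signal (linear axis from 0) of the 8 antioxidant probe sets called between the strains, 1 point per array, with the mean and SD of the 4 arrays as bars. Pgd and Msra are low and Srxn1 high in both SH groups, while Sod2 and Sod3 of WKY-air stand apart from the other 3 groups. The panels were chosen by the strain calls on these arrays, so these separations are not a further result.

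Pgd, Msra and Srxn1 separated all 8 SH arrays from all 8 WKY arrays, over DE and air, with Srxn1 higher and Pgd and Msra lower on every SH array than on any WKY array. These were 3 of the 42 probe sets (7.14%), where 1.08% of all probe sets with 1 gene did so. With Sod2 and Gstm1 they were the 5 members called over both exposures (11.9%, against 4.04% of all), and 16 had an unadjusted p under 0.05 (38.1%, against 18%). The comparisons in air and under DE share no arrays in their means, but the fit gives both the same estimate of the spread.

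Pgd encodes 6-phosphogluconate dehydrogenase, which makes NADPH in the pentose phosphate pathway. In air it read 350, 352, 409 and 380 in SH rats, against 652, 776, 767 and 788 in WKY rats. The highest SH-air array was below the lowest WKY-air array, and the difference was -0.97 ± 0.11 (adjusted p = 0.00019), 0.511-fold. Under DE the signals were 401, 447, 460 and 384 in SH rats and 549, 540, 528 and 588 in WKY rats. The gap was smaller there, -0.37 ± 0.11 (adjusted p = 0.131), and the interaction was 0.60 ± 0.15 (adjusted p = 0.185), so a change of the strain gap with DE was not called. Over both exposures Pgd was lower in SH rats by -0.67 ± 0.07 (adjusted p = 0.000103). Its calls in air and over both exposures held in every alternative run. A further 3 probe sets that the annotation gives to Pgd together with other genes were not used.

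Msra encodes the methionine sulfoxide reductase that repairs oxidized methionine in proteins. It read 184, 105, 178 and 186 in SH-DE, against 284, 343, 265 and 311 in WKY-DE. Every SH-DE array was lower, by -0.84 ± 0.17 (adjusted p = 0.033). In air it read 180, 172, 236 and 175 in SH rats and 238, 292, 325 and 272 in WKY rats, again without overlap, with a difference of -0.53 ± 0.17 that was not called (adjusted p = 0.118). Over both exposures it was lower in SH rats by -0.69 ± 0.12 (adjusted p = 0.00464). Without SH-DE replicate 2, its lowest array, the difference under DE was -0.67 and the adjusted p was 0.0733, and leaving out 5 other DE arrays, 1 at a time, also ended that call (adjusted p up to 0.0974). Selenow, a small selenoprotein abundant in muscle, was lower on every SH-air array than in WKY-air (-0.39 ± 0.15, adjusted p = 0.181) and was not called. Together 8 probe sets of 7 member genes were called in at least 1 comparison, and 34 were called in none.

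Srxn1 encodes sulfiredoxin, which reactivates overoxidized peroxiredoxins. It read 180, 249, 288 and 267 in SH-DE, against 62.5, 145, 133 and 57.9 in WKY-DE. The SH-DE arrays were all higher, by 1.25 ± 0.26 or 2.38-fold (adjusted p = 0.0395). In air the signals were 356, 184, 207 and 286 in SH rats and 161, 144, 138 and 163 in WKY rats, a difference of 0.67 ± 0.26 (adjusted p = 0.199). Over both exposures Srxn1 was higher in SH rats by 0.96 ± 0.19 (adjusted p = 0.00806). The call under DE was lost when any of 10 arrays was left out, for example at an adjusted p of 0.126 without WKY-DE replicate 1, while the call over both exposures held without each of the 16.

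Under DE, Srxn1 and Msra were the 2 members called between the strains (4.76%), where 0.704% of all probe sets were called, and 12 had an unadjusted p under 0.05 (28.6%, against 13.3%). The other peroxide-removing genes sat mostly above 0 in this comparison. All 6 probe sets of peroxiredoxins and sulfiredoxin were higher in mean in SH-DE than in WKY-DE, with differences of 0.03 to 1.25 and a median of 0.26, beside -0.08 over all probe sets. Groups did not overlap for 11 of the 42 (26.2%, against 8.81% of all). Of these, 7 were higher on every SH-DE array (16.7% of the 42, against 3.3% of all), Sod2, Gpx4, Gstm1, Prdx2, Prdx6, Srxn1 and 1 probe set of Sqstm1, and 4 were lower, Cat, Msra, Mt1 and Pgd (9.52%, against 5.51%). Apart from Srxn1 and Msra none of these passed the adjusted threshold.

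The glutathione S-transferases join glutathione to electrophiles for export. Gstm1, of the mu class, read 588, 613, 633 and 804 in SH-DE, against 465, 474, 436 and 315 in WKY-DE. In air it read 700, 844, 800 and 790 in SH rats and 697, 630, 529 and 554 in WKY rats. The SH arrays were higher than the WKY arrays of the same exposure in both cases, narrowly so in air, and Gstm1 was called over both exposures (0.50 ± 0.11, adjusted p = 0.0131) but in neither exposure alone (0.63 ± 0.15 under DE, adjusted p = 0.0673, and 0.38 ± 0.15 in air, adjusted p = 0.202). The mu-class genes are close paralogs, and probes for one could bind another. Gstm2 ran the other way, at -0.37 ± 0.14 over both exposures (adjusted p = 0.186). Gstp1 was lower on every SH-air array than in WKY-air (-0.36 ± 0.13) and was not called. Gsta1, Gsta4 and Gstt1 were between -0.09 and -0.03 over both exposures.

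Cp encodes ceruloplasmin, a copper protein that oxidizes ferrous iron. Pgd, at -0.97 in air, differed more than any Cp probe set but the dimmest, 1368420_at, which had the largest difference of the 42. Cp probe set 1368420_at read 57.2, 81.2, 49.8 and 119 in SH-air, against 196, 109, 256 and 193 in WKY-air. The difference was -1.14 ± 0.26 (adjusted p = 0.0273), with a small overlap of the groups. Probe set 1368418_a_at read 231, 211, 159 and 206 in SH-air and 334, 271, 483 and 468 in WKY-air without overlap, a difference of -0.87 ± 0.22 (adjusted p = 0.0429). The third, 1368419_at, differed by -0.92 ± 0.26 (adjusted p = 0.0689). So the 3 probe sets shared their direction in air, and under DE all 3 were near 0, at -0.07, -0.05 and -0.07. Single arrays decided these calls: without WKY-air replicate 3 the 1368420_at and 1368418_a_at differences were -0.99 (adjusted p = 0.0727) and -0.76 (adjusted p = 0.108), and the call was lost when any of 6 arrays was left out for 1368420_at (adjusted p up to 0.0763) and any of 10 for 1368418_a_at (adjusted p up to 0.12).

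Cp was set beside the atrial marker on each array. Probe set 1368418_a_at read 204, 256, 293 and 282 in SH-DE and 259, 209, 400 and 227 in WKY-DE. In each of these groups the highest array, replicate 3, was also the one with the highest Myl7 signal (7876 and 9630). The other DE arrays did not all keep this order. SH-DE replicate 4 had more Cp than replicate 2 but less Myl7, and WKY-DE replicate 1 had more Cp than replicate 4 but less Myl7. In WKY-air the 2 arrays highest in Cp had Myl7 signals of 11451 and 9718, while the array highest in Myl7 (25946) read 334 for Cp. In SH-air no Myl7 signal exceeded 154. On the DE arrays highest in Myl7, Sod3 read 1174 in SH-DE and 935 in WKY-DE. Replicate 3 of SH-DE and of WKY-DE also had the highest summed fibroblast signal of its group (23190 and 27273). In air the fibroblast sums separated the strains as well (17311 to 21376 in SH-air, 26278 to 35894 in WKY-air). The parts of atrial tissue and of fibroblasts in the strain differences of Cp and Sod3 were not tested.

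**Figure D2:**
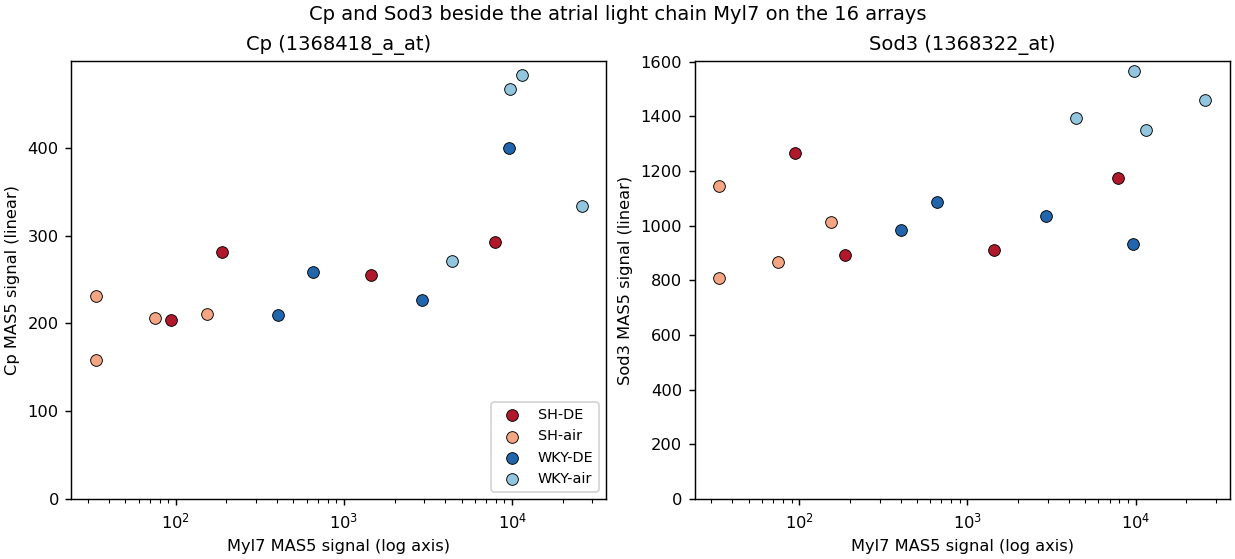
Signals of Cp (1368418_a_at) and Sod3 on linear axes against the atrial light chain Myl7 on a log axis, 1 point per array. The 4 SH-air arrays lie at or below a Myl7 signal of 154 and the 4 WKY-air arrays at or above 4415, so Myl7 and strain separate the same arrays in air. The summed fibroblast signal, not shown, also separates these arrays.

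Of the other genes for metals and heme, Hmox1 was not called in any comparison. Hmox1 encodes the inducible heme oxygenase, a standard sign of oxidant stress. It read 180, 182, 149 and 197 in SH-DE, 208, 262, 164 and 156 in SH-air, 82.5, 104, 110 and 189 in WKY-DE, and 179, 113, 132 and 157 in WKY-air. Most SH arrays were above most WKY arrays, with overlap, and the strain difference over both exposures was 0.47 ± 0.15 (adjusted p = 0.111). The difference of DE and air was -0.13 ± 0.22 in SH rats and -0.27 ± 0.22 in WKY rats. The 95% interval was -0.60 to 0.35 in SH rats and -0.74 to 0.20 in WKY rats. The metallothionein Mt2A, a zinc- and copper-binding scavenger, averaged 552 ± 193, 643 ± 96.2, 398 ± 182 and 588 ± 42.1 in SH-DE, SH-air, WKY-DE and WKY-air (SD, n = 4 each) and was not called. The Mt1 probe set was dim, at 4.86 to 20.6 over the 16 arrays.

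**Figure D3:**
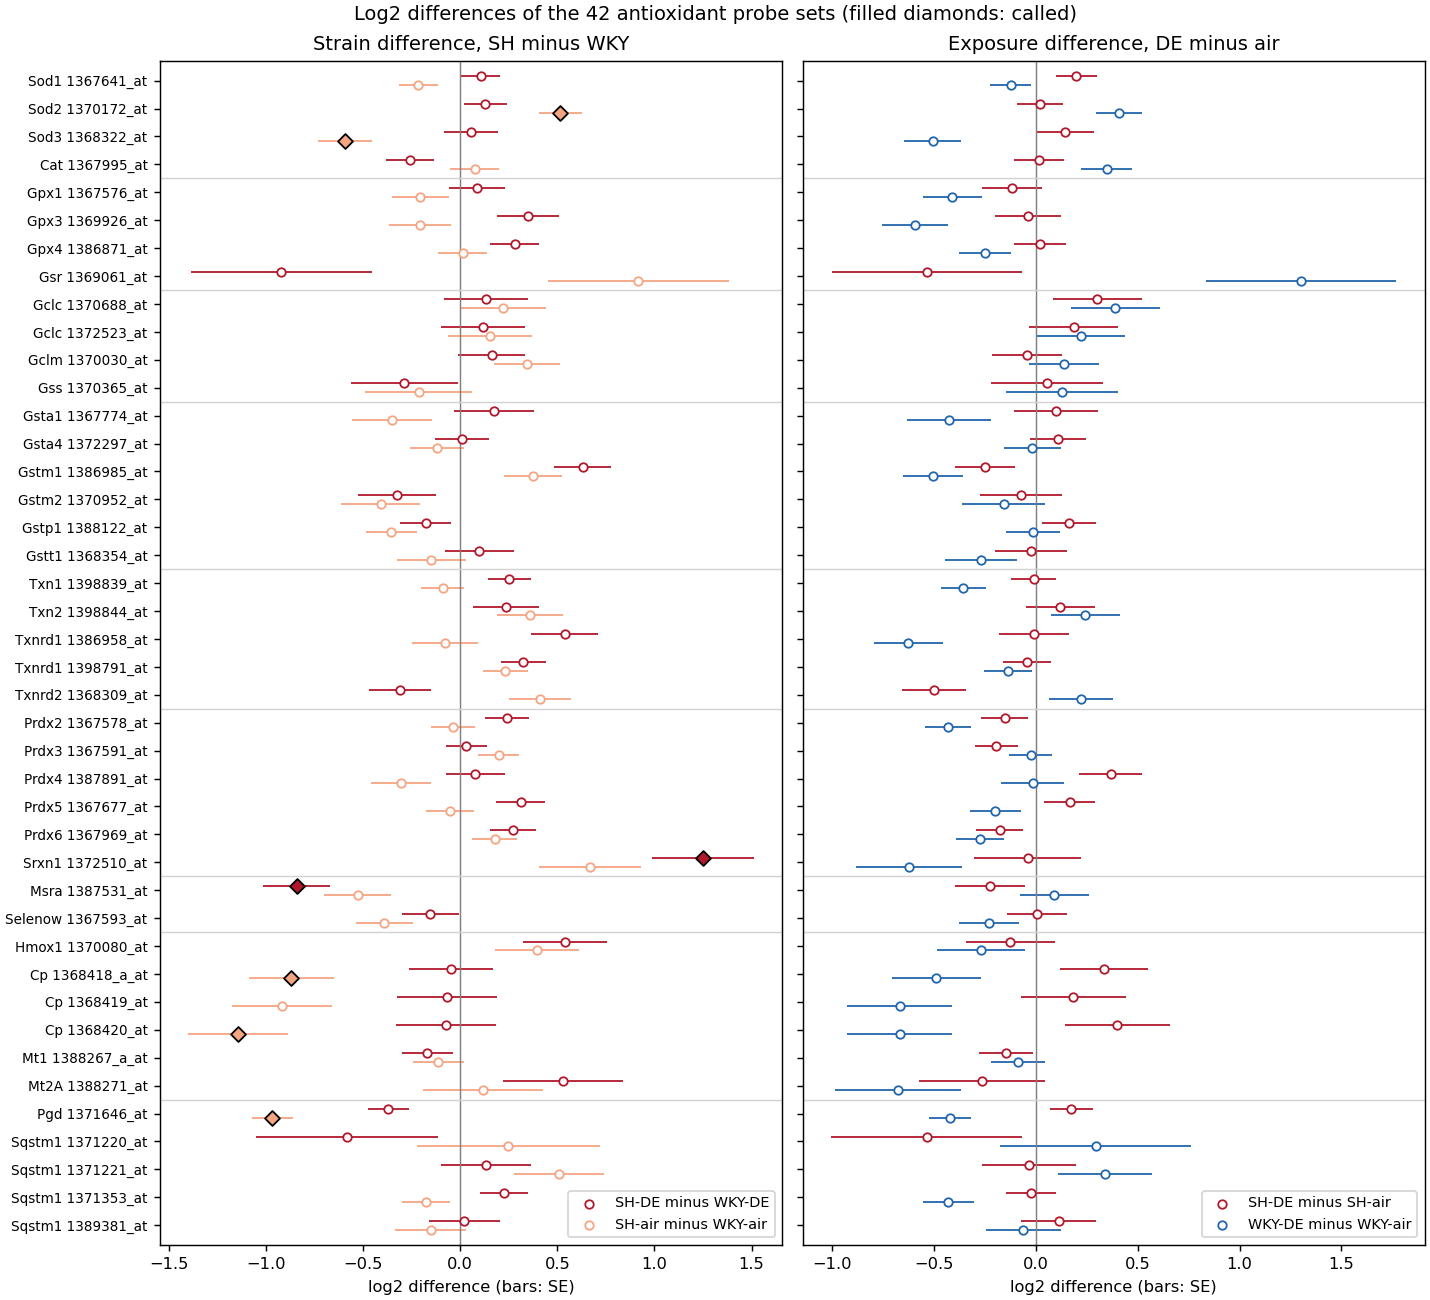
Log2 differences of all 42 probe sets with SE bars, in the order of their roles with grey lines between role groups, for SH minus WKY under DE and in air (left) and DE minus air in SH and WKY rats (right). Filled diamonds mark the 7 called differences, all of them between strains.

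The effect of DE was then examined within each strain. None of the 42 probe sets was called by limma in WKY-DE against WKY-air, where 1.87% of all probe sets with 1 gene were called, although 18 had an unadjusted p under 0.05 (42.9%, against 20.4% of all). The lean was downward. The median of the 42 was -0.18, with 30 below 0, while the median of all 12783 was 0.08. On every WKY-DE array 9 probe sets were lower than on any WKY-air array, 21.4% of the members against 4.58% of all probe sets, and 2 were higher, Sod2 and Gsr (4.76%, against 8.14%), so that 11 did not overlap (26.2%, against 12.7%). The 9 were Sod3, Gpx1, Gpx3, Gstm1, Txn1, Txnrd1, Prdx2, Pgd and a probe set of Sqstm1. Their mean signals lay at percentiles 68.1 to 99.4 of all probe sets. Without the dimmest 40% of probe sets the share of all called rose from 1.87% to 6.6%. The part of brightness in the members' shares was not tested. SH-air against WKY-air and WKY-DE against WKY-air share the WKY-air arrays, so a high or low WKY-air array moves both. Marker signals also ran lower in WKY-DE. The summed atrial signal, most of it from Nppa and Nppb, was 26589 to 56595 in WKY-DE and 46387 to 118416 in WKY-air (0 of 5 probe sets called). The summed fibroblast signal was 20560 to 27273 in WKY-DE and 26278 to 35894 in WKY-air (1 of 9 called lower). The summed ventricular signal was 203234 to 290443 in WKY-DE and 275862 to 359471 in WKY-air (8 of 12 below 0, 0 called). Their part in these differences was not tested.

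The count of calls in WKY-DE differed between settings. With an intensity trend and robust moderation, limma called 9 of the 42 (4.24% of all probe sets), Sod2 higher and Sod3, Gpx3, Gstm1, Txn1, Txnrd1, Prdx2, Pgd and Sqstm1 lower. Without the dimmest 40% of probe sets it called 8 (6.6% of the probe sets left), the same ones less Txn1. With an offset at the 25th percentile it called 5 (3.45% of all) and with array weights 3 (3.34% of all), and after quantile normalization none, as in the compared groups alone and with an offset of 1. After quantile normalization the median of the members was -0.14, with 30 below 0, beside 0.01 over all probe sets. The part of the higher median signal of the WKY-DE arrays in these differences was not tested further.

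Glutathione peroxidases and a peroxiredoxin were among these genes. Gpx3, the secreted plasma glutathione peroxidase, read 4048, 3892, 4400 and 4052 in WKY-DE, against 6631, 6336, 4863 and 7188 in WKY-air, a difference of -0.59 ± 0.16 (adjusted p = 0.0672). Gpx1, the main cytosolic form, read 14533, 12616, 15101 and 15582 in WKY-DE, against 24459, 18673, 18022 and 16357 in WKY-air (-0.41 ± 0.15, adjusted p = 0.138). Prdx2, a cytosolic peroxiredoxin abundant in red cells, read 8651, 8115, 8085 and 7958 in WKY-DE, against 12018, 11292, 10879 and 10183 in WKY-air (-0.43 ± 0.11, adjusted p = 0.0613). For all 3 the groups did not overlap, and the WKY-DE arrays were the tighter set. Erythroid markers, with sums of 13272 to 15461 in WKY-DE and 11994 to 22162 in WKY-air, overlapped between the groups. Most of these sums is Hbb, and of the 4 erythroid probe sets 2 were above 0 and 2 below in WKY-DE against WKY-air. The part of red cells in the Prdx2 difference was not tested. All 6 probe sets of peroxiredoxins and sulfiredoxin and all 6 of the glutathione S-transferases were below 0, with medians of -0.24 and -0.21. Gpx4, the phospholipid hydroperoxidase, differed by -0.25 ± 0.13 (adjusted p = 0.279).

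Thioredoxin reduces the peroxiredoxins and is itself reduced by thioredoxin reductase. Txn1, the cytosolic thioredoxin, read 4082, 4312, 4514 and 4137 in WKY-DE, against 6314, 5220, 4937 and 5442 in WKY-air (-0.36 ± 0.11, adjusted p = 0.0968). Txnrd1, the cytosolic reductase, read 324, 290, 238 and 303 in WKY-DE, against 399, 467, 514 and 434 in WKY-air on probe set 1386958_at (-0.63 ± 0.17, adjusted p = 0.0696). Its other probe set, 1398791_at, gave -0.14 ± 0.12 (adjusted p = 0.537) and overlapped, so the 2 probe sets of Txnrd1 shared a direction but not a size. The mitochondrial Txn2 and Txnrd2 pointed up, at 0.24 ± 0.17 and 0.22 ± 0.16, and were not called. Prdx3, the mitochondrial peroxiredoxin, was at -0.03 ± 0.11.

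**Figure D4:**
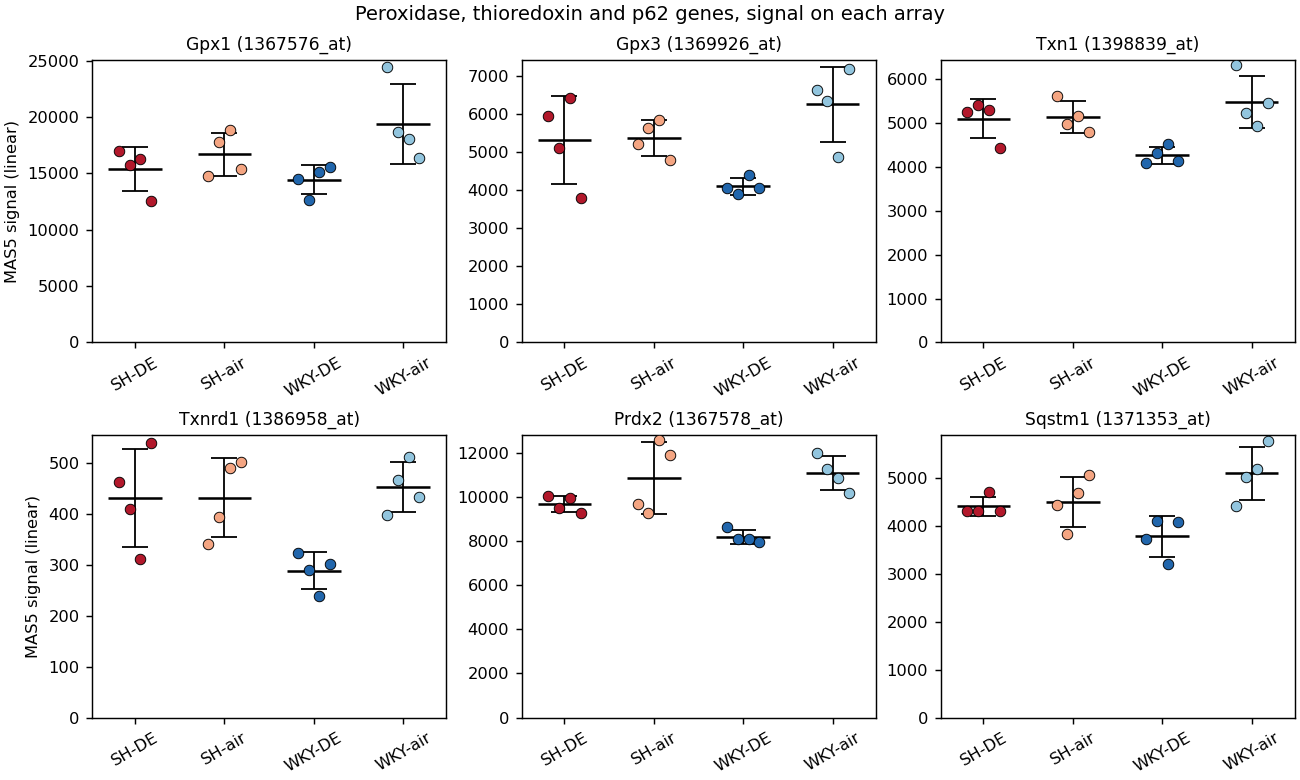
MAS5 signal (linear axis from 0) of 6 peroxidase, thioredoxin and p62 (Sqstm1) probe sets on the 16 arrays, 1 point per array, with mean and SD. The panels were chosen because all 4 WKY-DE arrays lie below all 4 WKY-air arrays, so this separation is not a further result. On each panel SH-DE and SH-air overlap. Gpx4, Txn2, Txnrd2, Prdx3, Prdx4, Prdx5, Prdx6, Srxn1 and the other probe sets of Txnrd1 and Sqstm1 are not shown. For these, WKY-DE and WKY-air overlapped.

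NADPH supply and the p62 adaptor followed in part. Pgd was lower on every WKY-DE array than in WKY-air, by -0.42 ± 0.11 (adjusted p = 0.054). Sqstm1, whose protein p62 binds KEAP1 and delivers cargo to autophagy, has 4 probe sets on the array, and they did not share a direction. Probe set 1371353_at, the brightest of them, read 3716, 4104, 3199 and 4087 in WKY-DE, against 4417, 5008, 5178 and 5761 in WKY-air (-0.43 ± 0.12, adjusted p = 0.0806). The others gave 0.29, 0.34 and -0.06, of which 1371220_at was dim (23.4 to 51.8 as group means).

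Glutathione synthesis did not share the downward lean. Gclc, the catalytic subunit of the rate-limiting enzyme, read 263, 284, 195 and 147 in WKY-DE and 173, 143, 195 and 138 in WKY-air on probe set 1370688_at. The same probe set read 263, 211, 250 and 230 in SH-DE and 198, 227, 119 and 240 in SH-air. Both strains leaned up with overlap, and over both strains the difference was 0.35 ± 0.15 (adjusted p = 0.312). The second Gclc probe set, the modifier subunit Gclm and the synthetase Gss were at 0.20, 0.05 and 0.09 over both strains. Glutathione reductase (Gsr) was dim, at 75.7, 92.5, 96.2 and 91.7 in WKY-DE and 11.4, 33.5, 10.5 and 73.4 in WKY-air, and its difference of 1.30 ± 0.47 was not called (adjusted p = 0.139).

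In SH rats no antioxidant gene passed the test with DE. No member was called by limma in SH-DE against SH-air, nor was any of the 12783 probe sets with 1 gene (0%). At an unadjusted p under 0.05 there were 2 members (4.76%, against 6.23% of all), Txnrd2 and Prdx4, and none was called in any alternative run. The median of the 42 was -0.01, with 20 above 0 and 22 below. Groups did not overlap for Txnrd2 and the dim Mt1 (4.76%, against 4.17% of all), both lower in SH-DE. Txnrd2, the mitochondrial thioredoxin reductase, read 618, 498, 694 and 593 in SH-DE, against 829, 715, 1037 and 850 in SH-air, lower on every array (-0.50 ± 0.16, adjusted p = 0.691). Prdx4, the peroxiredoxin of the secretory pathway, was at 0.37 ± 0.15 (adjusted p = 0.77).

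**Figure D5:**
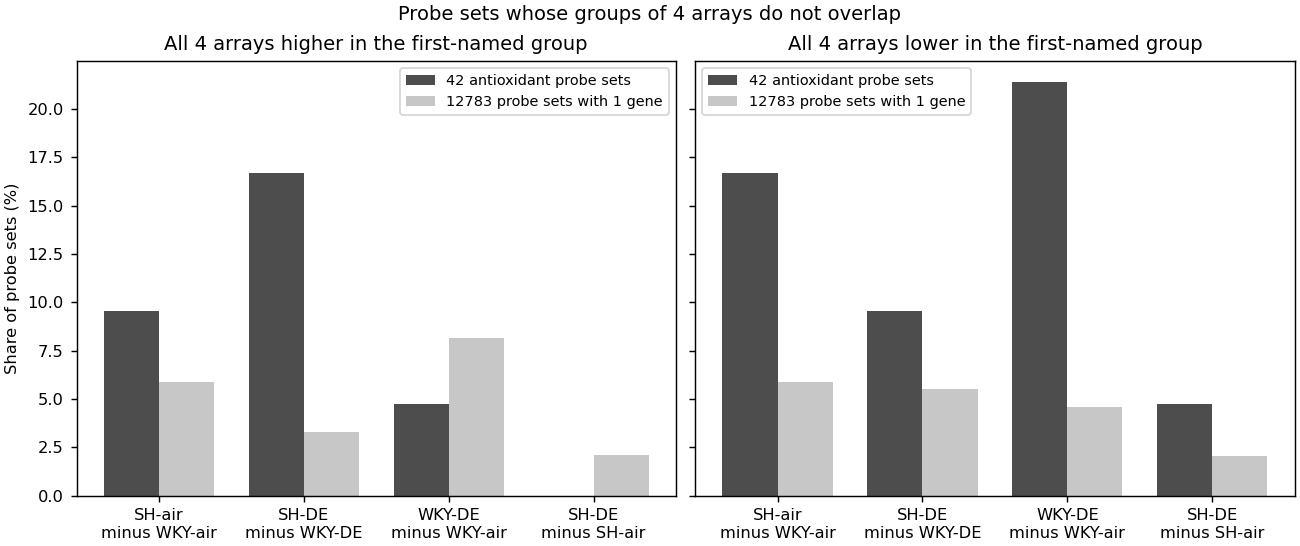
Share of probe sets whose 4 arrays all lie above (left) or below (right) the 4 arrays of the group set against them, for the 42 antioxidant probe sets (dark) and all 12783 probe sets with 1 gene (light), in 4 comparisons. With DE in WKY rats the members' share is 21.4% on the lower side, against 4.58% of all. With DE in SH rats it is 0 on the higher side, against 2.11%, and 4.76% on the lower side, against 2.06%. The members and all probe sets were not matched for brightness.

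Whether DE acted differently in the strains was tested by the interaction. No member was called, where 0.00782% of all probe sets were, and 13 of the 42 had an unadjusted p under 0.05 (31%, against 12.5% of all), 10 of them with a more positive effect in SH rats. Cp 1368420_at had an interaction of 1.07 ± 0.36 (adjusted p = 0.274) and Txnrd2 one of -0.72 ± 0.22 (adjusted p = 0.244). Over both strains no member was called for DE against air (0.164% of all), with 11 at an unadjusted p under 0.05 (26.2%, against 15.1%) and no member without overlap of DE and air arrays (0.133% of all). With the intensity trend Prdx2 alone was called there, and its difference was -0.29 ± 0.08.

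The rest of the pathway was read from 74 further genes for NRF2 and its regulators, glutathione and thioredoxin metabolism, NADPH supply and iron handling, of which 64 were measured by 78 probe sets. In air 5 of the 78 were called between the strains (6.41%, against 3.14% of all). Ephx1 (microsomal epoxide hydrolase), Me1 (malic enzyme, another source of NADPH), Sesn1 (sestrin) and Slc40a1 (the iron exporter ferroportin) were higher in SH-air, and Abcc1, an exporter of glutathione conjugates, was lower (-0.61 ± 0.15, adjusted p = 0.0381). Sesn1 read 1154, 987, 1136 and 1133 in SH-air, against 492, 575, 756 and 489 in WKY-air (0.93 ± 0.17, adjusted p = 0.0103). Me1 read 2393, 2048, 1609 and 2010 in SH-air, against 1107, 1372, 1380 and 1137 in WKY-air (0.68 ± 0.15, adjusted p = 0.026). Of the 8 probe sets of the other NADPH supply genes this was the one called, and a second Me1 probe set was not (0.51 ± 0.19, adjusted p = 0.177).

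Over both exposures 6 of the 78 were called between the strains (7.69%, against 4.04% of all), Me1, Sesn1, Slc40a1, the mitochondrial glutaredoxin Glrx5 and the transferrin receptor Tfrc higher in SH rats, and the glyoxalase Glo1 lower (-0.37 ± 0.08, adjusted p = 0.0217). Under DE none was called by limma between the strains, with 12 at an unadjusted p under 0.05 (15.4%, against 13.3% of all). The downward lean of the members with DE in WKY rats was not seen in the 78. Their median was 0.04, with 44 above 0 and 34 below, beside 0.08 over all. At an unadjusted p under 0.05 there were 14 (17.9%, against 20.4% of all). On every WKY-DE array 4 were lower than in WKY-air (5.13%, against 4.58%) and 2 higher (2.56%, against 8.14%). For DE in WKY rats 1 was called (1.28%, against 1.87% of all), Txnip, whose protein binds and inhibits thioredoxin. It read 5214, 6637, 4630 and 5175 in WKY-DE, against 7343, 10048, 9355 and 10230 in WKY-air, lower on every array (-0.77 ± 0.16, adjusted p = 0.0333), and in SH rats the difference was -0.12 ± 0.16. The difference of these effects was 0.65 ± 0.23 (adjusted p = 0.285). For NRF2 itself (Nfe2l2), the DE difference was 0.28 ± 0.18 in WKY rats and -0.08 ± 0.18 in SH rats, and for its target Nqo1 it was 0.25 ± 0.18 in WKY rats and -0.02 ± 0.18 in SH rats. Neither gene was called in any comparison.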

How the data were processed

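Left ventricular RNA was hybridized to Affymetrix Rat 230A arrays. The deposited values are linear MAS5 signal intensities per probe set, which the authors scaled to a common trimmed mean (500 with 2% cut from each tail, found from the values). They were extracted with the scanner maker's Microarray Suite under default settings, and detection calls were not used here. The number of arrays limits the precision.

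From 15923 probe sets, 57 controls were left out. Signals plus 16.1 (the 10th percentile of all values) were converted to log2 and fitted as 4 group means with limma 3.58.1 in R 4.3.3 (12 residual and 2.68 prior degrees of freedom). A difference is the first-named group minus the second. Gene names came from the platform annotation, with symbols updated by Entrez identifier (12783 with 1 gene, 312 with several, 2771 not listed), and only those with 1 gene were counted. The fit was tested on simulated data.

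Array values are given for member probe sets called in any of 7 comparisons, for the probe set of lowest moderated F-test p in role groups with none called, for Hmox1, for called pathway genes and, chosen after their values were seen, for those described under DE in WKY rats and Txnrd2 in SH rats. Members, lists and tests were chosen with earlier results of these data known. Replicate numbers did not pair arrays across groups (correlations of same-numbered arrays' deviations -0.10 to 0.05 over 24 pairs). Alternatives were other offsets, quantile normalization, a filter, an intensity trend, array weights, the compared groups alone, a replicate block, a stricter threshold and each array left out.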

Additional observations from a re-analysis of the deposited data

Results flagged for a closer look

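For the member and pathway probe sets whose array values the naming rule covers, 84 groups of 4 arrays were screened for an array far from the other 3, and 8 had one. Chance alone gives about 1 in 20 such groups. Among members, Msra had its lowest SH-DE signal on replicate 2 (105, the others 178 to 186) and its highest SH-air signal on replicate 3 (236, the others 172 to 180). Pgd had its lowest WKY-air signal on replicate 1 (652, the others 767 to 788). Among other pathway genes, Sesn1 read 703 on SH-DE replicate 3 (the others 1110 to 1135), 987 on SH-air replicate 2 (the others 1133 to 1154) and 823 on WKY-DE replicate 2 (the others 651 to 678). Abcc1 read 414 on SH-air replicate 4 (the others 352 to 358), and Tfrc read 2457 on WKY-air replicate 2 (the others 2215 to 2224).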

How the results depend on the processing

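The number of antioxidant probe sets called between SH-air and WKY-air was 5 and became 1 in the compared groups alone, with the replicate block and at an adjusted p under 0.01, with Pgd the one left. Between SH-DE and WKY-DE the 2 calls became 1 with an offset of 1 and with quantile normalization, and 0 in the compared groups alone, with the block and at the stricter threshold. Over both exposures the 5 became 3 at the stricter threshold. For WKY-DE against WKY-air, 0 became 5 with the offset at the 25th percentile, 8 without the dimmest 40%, 9 with the intensity trend and 3 with array weights. For DE over both strains the trend gave 1. Fewer residual degrees of freedom come with the compared groups alone and the block. The cause of the other changes was not tested.

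Leaving out each array in turn gave 1 to 6 calls between SH-air and WKY-air (1 without SH-air replicate 1 or 2 or WKY-air replicate 1 or 4, 2 without replicate 3 of WKY-air and 3 without replicate 3 or 4 of SH-air), 0 to 2 between SH-DE and WKY-DE (0 without SH-DE replicate 2 or WKY-DE replicate 1 or 4), 4 to 6 over both exposures, 0 to 2 for WKY-DE against WKY-air (1 without SH-DE replicate 4, 2 without WKY-air replicate 3) and 0 for the other 3. Without SH-DE replicate 3 and WKY-DE replicate 3, a choice made after seeing the data, there was 1 call between SH-DE and WKY-DE. Replicate numbers only name the arrays. The block gave 4 calls over both exposures, 1 between SH-air and WKY-air and 0 in the other comparisons.

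Of 460 values of single genes under these settings, 368 kept their direction and side of the threshold, 81 were no longer called, 10 became called and 1 reversed. This was Hmox1 in SH-DE against SH-air, which ranged from -0.22 to 0.010 over the arrays left out and reversed without SH-air replicate 2. Of the 42 member probe sets, 4 had a mean signal below the 25th percentile of all values (62.5), where small differences could not be measured.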
